A study of Sus scrofa with 23 samples.

Results

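The AP-1 immediate early genes FOS, FOSB, FOSL2, JUN and JUNB were examined in the prefrontal cortex of pigs after a single dose of psilocybin. They were taken by their pig Ensembl gene symbols and are 5 of the 25880 genes in the count table. All 5 were measured in all 23 animals and all 5 passed the filter on low counts. The animals were adolescent female Danish slaughter pigs of 20 kg. While awake and moving freely, each received 1 intravenous injection, either of saline or of psilocybin at 0.08 mg/kg. Psilocybin is a prodrug whose product psilocin acts on serotonin receptors. Pigs were killed with an overdose of intravenous pentobarbital, an agent that saline and psilocybin animals share, and the brain was frozen on dry ice. The groups were saline at 1 day (5 animals), psilocybin at 1 day (6), saline at 1 week (6) and psilocybin at 1 week (6). The earliest of these groups was sampled 1 day after the injection.

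AP-1 is a transcription factor made of a FOS family protein joined to a JUN family protein, or of JUN proteins joined to each other. FOS, FOSB and JUNB are immediate early genes: in cortical neurons, synaptic activity and calcium entry switch on their transcription within minutes through kinases that act on SRF, ELK and CREB proteins, and their mRNAs are short-lived. FOS mRNA is therefore widely used as a mark of recent neuronal activity. JUN and FOSL2 are also inducible but have a higher resting level in many tissues, and JUND is largely constitutive.

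Each animal gave 1 library from polyadenylated RNA, with 9504421 to 18654626 assigned fragments, of which 7.08% to 15.6% were mitochondrially encoded. The labels divide the libraries into batch 1 (11 animals) and batch 2 (12 animals), and each group holds animals of both. Neuron markers were present in every animal: the summed level of 9 markers such as SNAP25 and SLC17A7 lay between 6397 and 9068 CPM (counts scaled to a common library total, with TMM factors). Summed levels were 1066 to 2903 CPM for 6 astrocyte markers, 3466 to 22266 CPM for 5 oligodendrocyte markers and 138 to 335 CPM for 7 microglia markers. The labels name no dissected subregion of the prefrontal cortex. The P-values below for differences set each difference against the spread between these animals. Those for correlations come from permuting values between animals, mostly within each group and batch.

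Coordinates are those of the exons in the count table, on susScr11. FOS (ENSSSCG00000002383) lies at chr7:98449508-98453576 on the plus strand, with 2748 exon bases. FOSB (ENSSSCG00000031616) lies at chr6:51838277-51842399 on the plus strand, with 978 exon bases. FOSL2 (ENSSSCG00000032527) lies at chr3:110819947-110842850 on the minus strand, with 5971 exon bases. JUN (ENSSSCG00000031912) lies at chr6:153685682-153687639 on the plus strand, with 1772 exon bases. None of these 4 shares exon bases with another annotated gene. JUNB (ENSSSCG00000013735) lies at chr2:66214594-66215637 on the minus strand, with 1044 exon bases in 1 exon. All of its exon bases (100%) lie inside an exon of PRDX2, a peroxiredoxin gene on the other strand, and 331 of them also inside HOOK2. Because fragments were counted without strand and divided among overlapping genes, the JUNB value is made of shared fragments. It can hold fragments of PRDX2 and HOOK2, and fragments of JUNB itself are counted to it only in part. Across animals JUNB varied with HOOK2 (r = 0.78, permutation P = 0.00042 after Benjamini-Hochberg adjustment over 3 relations) and with PRDX2 (r = 0.52, adjusted permutation P = 0.0067). The counts of these genes share fragments, so these P-values do not test whether the genes themselves vary together. The part of this overlap in the JUNB values was not tested.

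Per length of exon, JUN was the most abundant of the 5 genes and FOSB the least. The exon models of FOSB and JUNB stop short at both ends of the genes in the RefSeq gene table, whose spans are 7752 and 5350 bases. The model of JUND, a further JUN family gene, also stops short at both ends of its RefSeq gene, which spans 1856 bases. Fragments outside the models were not counted, so the levels of these genes can depend on the annotation. The models of FOS, FOSL2, JUN and FOSL1 reach beyond the limits of their RefSeq genes, so their exon lengths and levels per length can depend on it too. The level of JUN, the main partner of FOS proteins, had a median of 49.5 RPKM (CPM divided by exon length in kilobases) and ran from 38.8 to 60.8 RPKM over the 23 animals. FOSL2, a FOS family member without the strong activation domain of FOS, had a median level of 15.6 RPKM (12.3 to 21.5). JUNB, a JUN relative that is a weaker activator than JUN, had a median level of 10.6 RPKM (5.88 to 25.3). The median level of FOS was 8.94 RPKM (2.97 to 17.1). For FOSB, whose long and short protein forms were not separated by this gene-level table, it was 1.97 RPKM (0.717 to 7.80).

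The order of the levels held within most animals. FOSL2 was above JUNB in 20 of 23 animals, JUNB above FOS in 20 of 23 and FOS above FOSB in 23 of 23. The place of JUNB in this order is uncertain in both directions. Its value can hold fragments of PRDX2 and HOOK2, and its own fragments are counted to it only in part. The ranges of FOSL2, JUNB and FOS overlapped, so these neighbours are separated within animals and not by their spread over animals. The remaining FOS and JUN family genes are JUND and FOSL1. JUND had a median level of 143 RPKM and exceeded JUN in 23 of 23 animals. FOSL1 had a median level of 29.1 RPKM, but 609 of its 4790 exon bases (12.7%) are shared with CCDC85B on the other strand. The median count was 1792.1 for FOSL1 and 1326.6 for CCDC85B, and their values followed each other across animals (r = 0.99, adjusted permutation P = 9e-05). These counts share fragments, so this P does not test whether the genes themselves vary together. The level of FOSL1 and its place among these genes are uncertain, and its changes given below can hold the same shared fragments.

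**Figure D1:**
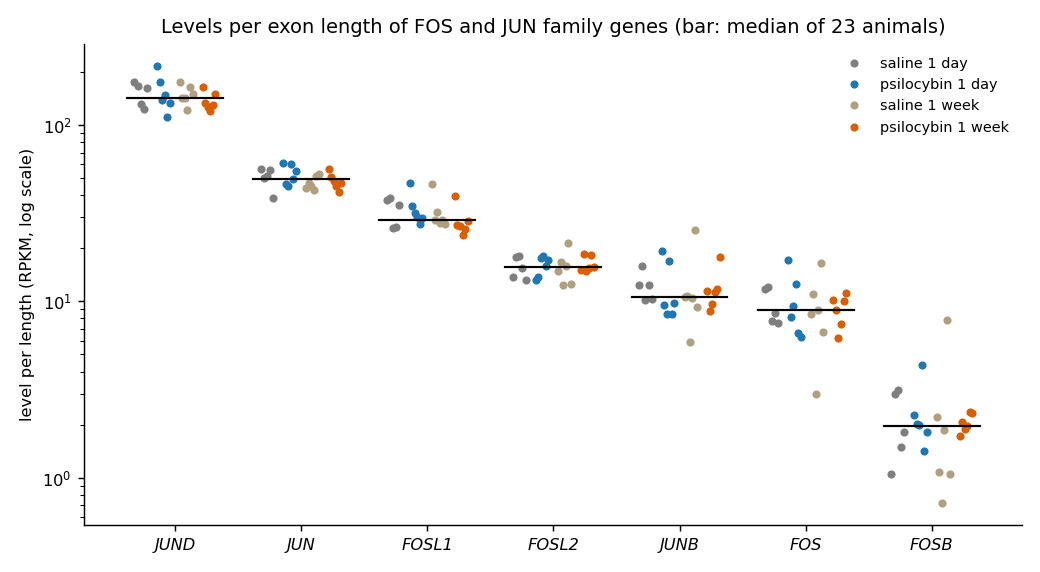
Level per exon length (RPKM, log axis) of the 7 FOS and JUN family genes, 1 point per animal coloured by group, with a bar at the median of 23 animals. JUND lies highest with a median of 143 RPKM and FOSB lowest at 1.97 RPKM, and the 4 groups overlap for every gene.

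The levels of FOS overlapped between the 4 groups and differed several-fold between animals. Its level in the saline animals at 1 day was 20.7, 21.2, 23.6, 32.1 and 33.2 CPM. At 1 day after psilocybin the lowest level was 17.2, the median 24.0 and the highest 46.9 CPM. At 1 week the lowest, median and highest levels were 8.15, 23.9 and 45.6 CPM after saline and 17.1, 26.2 and 30.8 CPM after psilocybin. The psilocybin values thus surrounded the saline values at 1 day and lay inside them at 1 week. Group means were 26.2 ± 6.03 CPM (SD, n = 5) for saline and 27.5 ± 11.4 (n = 6) for psilocybin at 1 day, and 25.0 ± 12.5 (n = 6) and 24.8 ± 5.13 (n = 6) at 1 week. The fitted log2 fold change of FOS was 0.07 ± 0.29 (SE) at 1 day, with a 95% confidence interval of -0.54 to 0.68. At 1 week it was -0.021 ± 0.28 (-0.60 to 0.56). The sign at 1 day was negative without psilocybin 1 day replicate 1 (-0.15) or replicate 4 (-0.033), in batch 1 alone (-0.036) and as a difference of mean log2 CPM (-0.046). At 1 week it was positive without saline 1 week replicate 5 (0.26) or replicate 2 (0.039) or without psilocybin 1 week replicate 3 (0.070) or replicate 4 (0.026). Signs of FOSL2, JUN and JUNB at these times also turned on leaving out single animals, so no direction is given for any member at either time. In bulk tissue, fewer cells of a type and less RNA per cell cannot be told apart.

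FOSB had the lowest counts, between 8 and 98.5 fragments per library with a median of 23, so its values are the least precise. Its level in the saline animals at 1 day was 1.03, 1.46, 1.77, 2.91 and 3.06 CPM. After psilocybin at 1 day the lowest, median and highest were 1.39, 1.95 and 4.28 CPM. In the saline animals at 1 week they were 0.70, 1.44 and 7.63 CPM, and in the psilocybin animals at that time 1.69, 1.98 and 2.29 CPM. A single animal in each of psilocybin at 1 day and saline at 1 week stood above the rest of its group, whose next values were 2.21 and 2.17 CPM. All 6 psilocybin animals at 1 week were above the median of the saline animals, yet inside their range. The log2 fold change of FOSB was 0.22 ± 0.43 (SE) at 1 day (95% confidence interval -0.67 to 1.12) and -0.19 ± 0.42 at 1 week (-1.05 to 0.67). Its sign turned at each time without the animal that stood apart: it was -0.030 at 1 day without psilocybin 1 day replicate 4, and 0.54 at 1 week without saline 1 week replicate 5. None of these values passed the test.

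FOSL2 was measured with the narrowest spread of the FOS family members. The saline animals at 1 day had levels of 78.6, 82.4, 92.9, 106 and 107.7 CPM. The lowest, median and highest levels were 78.9, 98.7 and 107.5 CPM after psilocybin at 1 day, 73.7, 91.8 and 128.6 CPM after saline at 1 week, and 88.7, 93.1 and 110.3 CPM after psilocybin at 1 week. Groups overlapped at both times. The log2 fold change was 0.034 ± 0.12 (SE) at 1 day, with a 95% confidence interval of -0.22 to 0.29, which as a ratio is 0.86 to 1.22. At 1 week it was 0.061 ± 0.12 (-0.18 to 0.30).

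JUN had the narrowest intervals of the 5 genes. Its level in the saline animals at 1 day was 68.7, 89.2, 91.0, 98.2 and 100.4 CPM. After psilocybin at 1 day the lowest, median and highest levels were 80.6, 92.5 and 107.8 CPM. At 1 week they were 75.9, 82.1 and 93.5 CPM after saline and 74.4, 84.5 and 100.03 CPM after psilocybin. The ranges overlapped at both times. The log2 fold change of JUN was 0.066 ± 0.10 (SE) at 1 day, and its 95% confidence interval of -0.14 to 0.28 is a ratio of 0.91 to 1.21. At 1 week it was 0.03 ± 0.097 (-0.17 to 0.23), a ratio of 0.89 to 1.17.

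JUNB, whose value includes shared fragments as described, followed FOS in its pattern. Levels in the saline animals at 1 day were 10.6, 10.8, 12.9, 13.0 and 16.6 CPM. The lowest, median and highest levels after psilocybin at 1 day were 8.82, 10.1 and 20.3 CPM. At 1 week they were 6.14, 11.0 and 26.5 CPM after saline and 9.24, 11.9 and 18.6 CPM after psilocybin. The 2 highest psilocybin animals at 1 day, at 17.6 and 20.3 CPM, were above every saline animal of that time and the other 4 were below every saline animal. The log2 fold change was 0.0033 ± 0.28 (SE) at 1 day (95% confidence interval -0.57 to 0.58) and -0.021 ± 0.27 at 1 week (-0.57 to 0.53).

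**Figure D2:**
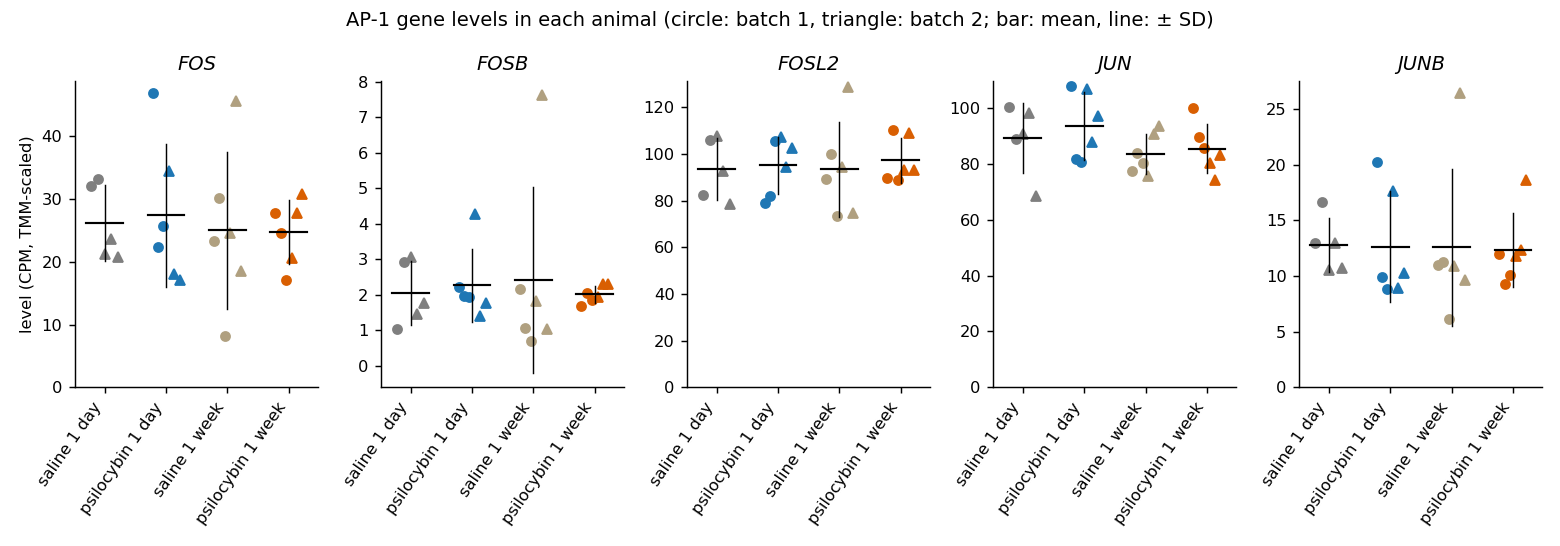
Level (CPM) of each AP-1 gene in every animal by group, with circles for batch 1, triangles for batch 2, a bar at the mean and a line of ± 1 SD. The groups overlap for every gene, and the highest FOSB (7.63 CPM), FOSL2 (128.6 CPM) and JUNB (26.5 CPM) values belong to the same saline animal at 1 week.

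None of the 5 genes differed between psilocybin and saline at 1 day or at 1 week by edgeR's quasi-likelihood test with Benjamini-Hochberg adjustment over 15049 genes. The background was the same: 0 of 15049 genes (0%) passed an adjusted P of 0.05 in each comparison of treatment or time. At an unadjusted P under 0.05, 0 of the 5 genes and 2.83% of all genes passed at 1 day, and 0 of the 5 and 1.99% of all genes at 1 week. DESeq2 and limma-voom also called 0 of the 5 and 0 genes in all at either time. Unadjusted P-values of the members ran from 0.52 for JUN to 0.99 for JUNB at 1 day, and from 0.61 for FOSL2 to 0.94 for FOS at 1 week. A P-value that misses the threshold does not show equal levels: the intervals at 1 day still allow ratios of 0.69 to 1.60 for FOS, 0.63 to 2.17 for FOSB and 0.67 to 1.49 for JUNB. At 1 week they allow 0.66 to 1.48 for FOS, 0.48 to 1.59 for FOSB and 0.67 to 1.45 for JUNB.

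The same held for each gene on its own. Exact two-sided permutation tests of the mean log2 CPM, exchanging treatments within each batch, gave P-values from 0.615 to 0.845 at 1 day and from 0.58 to 0.785 at 1 week. The smallest P these designs allow is 0.005 at 1 day (200 arrangements, with unequal groups in batch 1) and 0.005 at 1 week (400 arrangements, with equal groups). Within batches the differences pointed in opposite directions for each gene at each time, except for FOSB at 1 day (0.20 in batch 1 and 0.14 in batch 2) and FOSL2 at 1 week (0.14 and 0.021). At 1 day the difference of JUN (psilocybin minus saline, log2 CPM) was -0.083 in batch 1 and 0.19 in batch 2, and that of FOSL2 was -0.085 and 0.14. At 1 week the difference of FOSB was 0.57 in batch 1 and -0.18 in batch 2, and that of FOS was 0.34 and -0.078. For all 5 genes the psilocybin and saline animals overlapped at both times. Over all genes tested, 19 of 15049 (0.126%) did not overlap at 1 day and 7 (0.0465%) at 1 week.

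The psilocybin effect did not change detectably between the times for any of the 5 genes. The change in log2 fold change from 1 day to 1 week was -0.09 ± 0.41 (SE) for FOS, -0.41 ± 0.60 for FOSB, 0.027 ± 0.17 for FOSL2, -0.036 ± 0.14 for JUN and -0.024 ± 0.39 for JUNB. Averaged over the times, the log2 fold change was 0.024 ± 0.20 for FOS, 0.017 ± 0.30 for FOSB, 0.047 ± 0.085 for FOSL2, 0.048 ± 0.070 for JUN and -0.009 ± 0.19 for JUNB. The average gives the narrowest limits on the ratio of psilocybin to saline, 0.94 to 1.14 for JUN, 0.91 to 1.17 for FOSL2 and 0.76 to 1.36 for FOS.

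Nor did the genes differ detectably between times within a treatment. From 1 day to 1 week in saline animals the log2 fold changes were -0.052 ± 0.29 for FOS, 0.23 ± 0.43 for FOSB, 0.0063 ± 0.12 for FOSL2, -0.098 ± 0.10 for JUN and -0.029 ± 0.28 for JUNB. In psilocybin animals they were -0.14 ± 0.28 for FOS, -0.19 ± 0.42 for FOSB, 0.033 ± 0.12 for FOSL2, -0.13 ± 0.097 for JUN and -0.053 ± 0.27 for JUNB. In these comparisons 0 of the 5 genes passed at an unadjusted P under 0.05, against 2.01% and 3.18% of all genes, and DESeq2 and limma-voom called 0 of the 5. The comparisons of treatment and time share animals and are not independent of each other.

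Between batches, too, no member passed the test. Of 15049 genes, 4955 (32.9%) differed between batch 2 and batch 1 by edgeR's quasi-likelihood test, and 0 of the 5 members did, nor did any at an unadjusted P under 0.05 or by DESeq2 or limma-voom. The member nearest the threshold was FOSB, with a log2 fold change of 0.54 ± 0.30 and an edgeR adjusted P of 0.17 (0.087 unadjusted). The other 4 were JUNB at 0.20 ± 0.19, FOSL2 at 0.10 ± 0.085, JUN at -0.028 ± 0.070 and FOS at -0.059 ± 0.20.

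**Figure D3:**
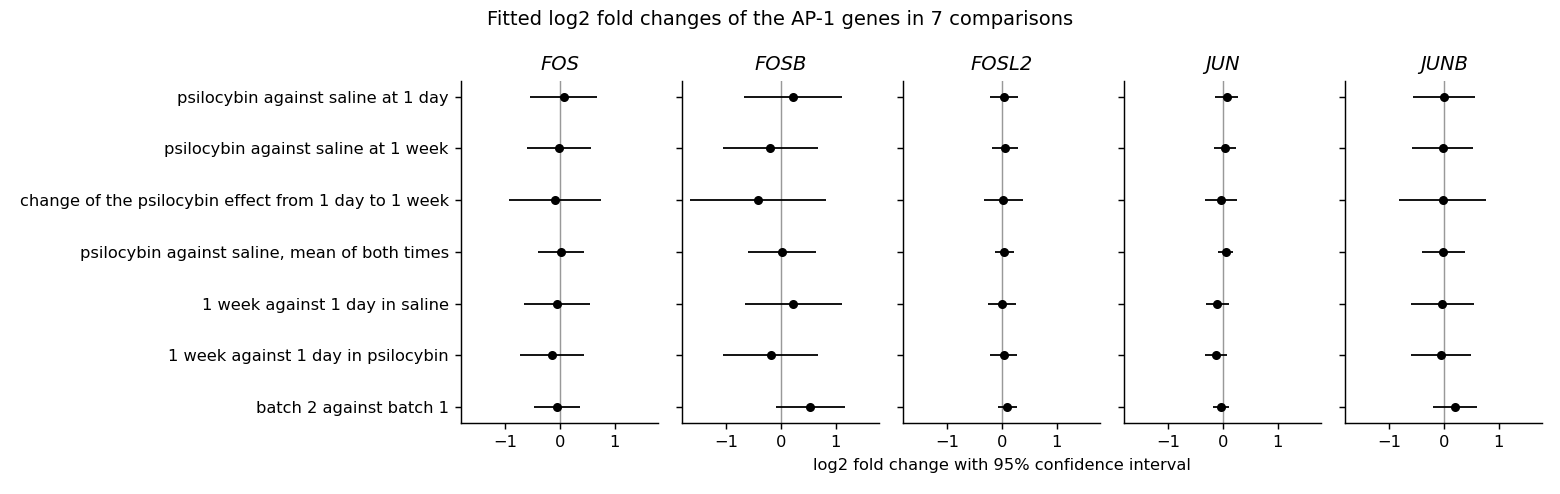
Fitted log2 fold change with its 95% confidence interval for the 5 AP-1 genes (panels) in 7 comparisons (rows). Every interval includes 0. The intervals of FOSB are the widest, -0.67 to 1.12 at 1 day, and those of JUN the narrowest, -0.14 to 0.28.

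The members differed from each other in how much they varied between animals of the same group and batch. The standard deviation of log2 CPM within group and batch was 0.72 for FOSB, 0.55 for FOS and 0.48 for JUNB. It was smaller than these values for 97.7%, 93.2% and 89.2% of all genes tested. Among genes within 1 log2 unit of the same mean level it was smaller for 93.4%, 98.7% and 94.9%, respectively. For FOSL2 it was 0.23, with 50.8% of all genes and 78.5% of genes of like level below it. For JUN it was 0.17, with 25.9% of all genes and 48.8% of genes of like level below it. FOS, FOSB and JUNB thus varied more than most genes of their level, and JUN about as much as genes of its level.

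A few animals accounted for the extremes. The saline animal at 1 week with the highest FOSB, FOSL2 and JUNB (replicate 5) had the next to highest FOS, at 45.6 CPM. The highest FOS, at 46.9 CPM, and the highest JUN, at 107.8 CPM, were in psilocybin 1 day replicate 1. The lowest FOS, FOSB, FOSL2 and JUNB values were all in saline 1 week replicate 3, whose JUN, at 80.5 CPM, was within the range of its group. The lowest JUN, at 68.7 CPM, was in saline 1 day replicate 5. The highest values were thus in saline and psilocybin animals, and the lowest value of each of the 5 genes was in a saline animal.

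FOS and JUNB rose and fell together across animals. After the mean of each group and batch was subtracted, the correlation of their log2 CPM over 23 animals was r = 0.87 and rho = 0.87 (adjusted permutation P = 0.0053 and 0.012, over 10 pairs of members). It was 0.84 within batch 1, 0.94 within batch 2, 0.90 without the 2 animals farthest from the median of FOS and 0.82 without the 2 animals with the highest FOSB. Leaving out any 1 animal kept r between 0.85 and 0.89, past the adjusted threshold each time. In batch 1 alone the adjusted permutation P was 0.41 and in batch 2 alone 0.036. The JUNB values hold fragments shared with PRDX2 and HOOK2. With the assigned total, r was 0.59 for FOS and 0.47 for JUNB (adjusted permutation P = 0.17 and 0.21, over 35 relations). The part of shared fragments or of depth in the relation of FOS and JUNB was not tested.

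FOSB varied with FOS, FOSL2 and JUNB, but whether these relations passed the threshold depended on single animals. The correlations were r = 0.63 with FOS (rho = 0.59, adjusted permutation P = 0.039 and 0.025), r = 0.73 with FOSL2 (rho = 0.65, P = 0.030 and 0.025) and r = 0.72 with JUNB (rho = 0.67, P = 0.028 and 0.023). Within batch 1 they were 0.43, 0.50 and 0.50, and within batch 2 0.87, 0.85 and 0.85. Without the 2 animals farthest from the median of FOS, in the pair with FOS, or of FOSB, in the other pairs, they were 0.70, 0.52 and 0.56. Without the 2 animals with the highest FOSB they were 0.39, 0.59 and 0.39, with adjusted permutation P of 0.50, 0.24 and 0.30. Leaving out saline 1 week replicate 5 alone gave 0.52, 0.56 and 0.54, with adjusted permutation P of 0.12, 0.084 and 0.084. The adjusted P also passed above the threshold in all 3 pairs without psilocybin 1 day replicate 4 (r = 0.57, 0.75 and 0.67), psilocybin 1 day replicate 5 (0.62, 0.72 and 0.70), saline 1 week replicate 3 (0.61, 0.70 and 0.69) or saline 1 week replicate 4 (0.63, 0.73 and 0.71). For FOS it did so further without saline 1 week replicate 6 (0.57), psilocybin 1 day replicate 6 (0.62) or psilocybin 1 week replicate 4 (0.63), and for FOSL2 without saline 1 day replicate 3 (0.70) or saline 1 week replicate 6 (0.63). In some of these cases, such as without saline 1 week replicate 4, r hardly moved and only the adjusted P crossed the threshold. On leaving out 1 animal, r fell most in all 3 pairs without saline 1 week replicate 5.

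The correlations of JUN with FOSB and FOSL2 were near 0, and those with FOS and JUNB did not pass. Its r was 0.084 with FOSB, -0.0062 with FOSL2, 0.40 with FOS and 0.51 with JUNB, with adjusted permutation P of 0.84, 0.98, 0.081 and 0.080. The pair of JUN and JUNB came under the threshold without saline 1 day replicate 1 (r = 0.55, adjusted permutation P = 0.044), saline 1 day replicate 2 (0.55, 0.044) or saline 1 week replicate 6 (0.64, 0.027), and JUN and FOS without saline 1 week replicate 6 (0.51, 0.027). FOSL2 varied with FOS at r = 0.52 (adjusted permutation P = 0.081) and with JUNB at r = 0.38 (0.31). FOS and FOSL2 came under the threshold without psilocybin 1 day replicate 1 (r = 0.66, adjusted permutation P = 0.022) or psilocybin 1 day replicate 3 (0.61, 0.031).

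**Figure D4:**
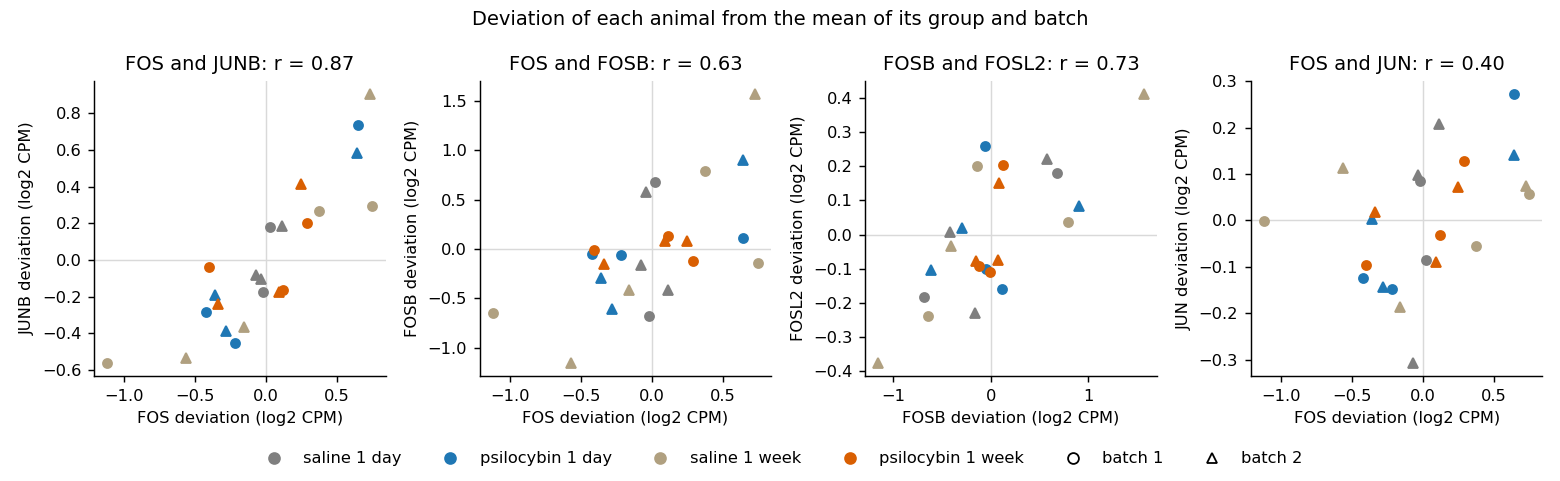
Deviation of each animal from the mean of its group and batch (log2 CPM) for 4 pairs of members, 1 point per animal, coloured by group, with circles for batch 1 and triangles for batch 2. FOS and JUNB lie along a line (r = 0.87), while the spread around FOS and JUN is wide (r = 0.40). In the FOSB panels 1 animal, saline 1 week replicate 5, lies far from the rest.

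The genes whose levels followed the members most closely were named by the highest r among 12491 other tested genes with a symbol, as a description with no test. For FOS they were EGR1 (r = 0.94), NR4A1 (0.91) and EGR2 (0.88), which are transcription factors and immediate early genes. For JUNB they were NR4A1 (0.92), ERF (0.88), a repressor of the ETS family that ERK controls, and EGR1 (0.88). For FOSB they were TRIB1 (0.85), a pseudokinase, RNF39 (0.85) and CHPF (0.84), an enzyme of chondroitin synthesis. For FOSL2 they were EGR3 (0.91), the ETS factor ETV5 (0.84) and GNL1 (0.83). For JUN they were RANGAP1 (0.89), an activator of the Ran GTPase, SLC2A8 (0.87), a sugar transporter, and CANT1 (0.86), a nucleotidase. FOS and JUNB share EGR1 and NR4A1, and the 3 genes of FOSB, of FOSL2 and of JUN are each named for that member alone. Being named once follows from the cut at 3 genes and does not make a gene particular to that member. TRIB1 also had r = 0.79 with FOSL2, 0.74 with JUNB and 0.72 with FOS, but 0.20 with JUN. EGR3 also had 0.71 with FOSB, but 0.45 with FOS, 0.40 with JUNB and 0.10 with JUN. Without the 2 animals with the highest FOSB the values ran from 0.85 to 0.91 for the 3 genes of FOS and from 0.69 to 0.85 for those of FOSB.

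The other immediate early genes followed the members as a group, again as a description. Of 28 such genes tested, r with FOS was over 0.5 for 17 (60.7%), against 271 of the 12491 other genes (2.17%). The counts were 17 with FOSB (60.7%, against 5.34% of other genes), 18 with JUNB (64.3%, against 5.88%) and 13 with FOSL2 (46.4%, against 7.83%). With JUN it was 4 (14.3%, against 7.5%). The points share libraries and depth. With FOS the highest after EGR1, NR4A1 and EGR2 were ARC (0.88), a synaptic protein, SIK1 (0.81), NR4A3 (0.81), CSRNP1 (0.79) and NPAS4 (0.77), a neuron-specific factor. ARC itself ran from 48.3 to 548.8 CPM.

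Among genes that limit AP-1 signalling, r with FOS was over 0.5 for 5 of 13 (38.5%), against 2.17% of the 12491 other genes. These were the phosphatases of MAP kinases DUSP5 (0.88), DUSP6 (0.78) and DUSP1 (0.66) and the receptor signalling inhibitors SPRY2 (0.71) and SPRY4 (0.52). The lowest values in this list were -0.44 with FOS (ITCH) and -0.70 with FOSL2 (ZFP36). JUN differed here, as its highest values were with MEN1 (0.73), the menin gene, whose protein binds JUND, and FBXW7 (0.68), part of a ubiquitin ligase that degrades JUN. Its lowest was with DUSP10 (-0.51). Of 16 genes known as AP-1 targets, r with FOS was over 0.5 for 3 (18.8%). They were PENK (0.67), which encodes enkephalin, the neurotrophin BDNF (0.59) and VGF (0.52). With JUN, r of these targets ran from -0.54 (CAMK2A) to 0.70 (VGF). Of 23 genes that act upstream of AP-1 genes 0 exceeded 0.5 with FOS, near the 2.17% of other genes. With FOSB their r ran from -0.60 (CREB1) to 0.74 (SRF, the factor that binds the FOS promoter), with a list median of -0.0034. With FOSL2 it ran from -0.44 (MAP2K7) to 0.75 (MEF2D), with a list median of 0.24, and SRF had 0.70. Of the 10 other AP-1 and dimer partner genes tested, JDP2, a repressor that pairs with JUN proteins, alone exceeded 0.5 with FOS (0.66). That is 10% of the list. With JUNB the r of this list ran from -0.60 (ATF7) to 0.65 (JUND).

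**Figure D5:**
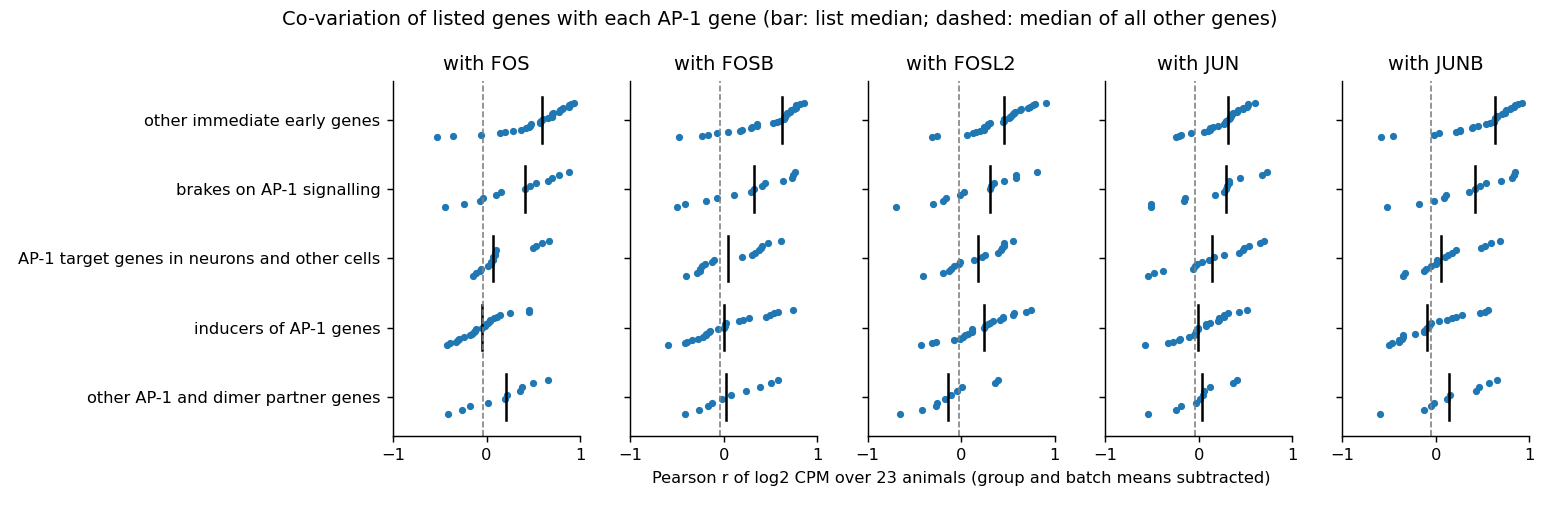
Pearson r of each listed gene with each AP-1 gene (panels) over 23 animals, after subtraction of group and batch means, by gene list (rows), with a bar at the list median and a dashed line at the median of all other genes. The other immediate early genes lie to the right for FOS, FOSB and JUNB, with list medians of 0.59, 0.62 and 0.63, and less so for JUN (0.31).

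In these lists, too, 0 genes passed the threshold in any comparison of treatment or time by edgeR. At an unadjusted P under 0.05, 3 listed genes passed at 1 day (ATF2, CRTC1 and PLAU), from lists of 10, 23 and 16 tested genes, and 0 in the lists of 13 and 28. At 1 week 0 passed. The share over all genes at 1 day was 2.83%, and none of these genes passed after adjustment. At 1 day the log2 fold changes of the 28 other immediate early genes had a median of 0.064, against 0.0044 for all genes, and 15 of 28 were positive. The smallest P-values in that list at 1 day belonged to KLF4 at 0.41 ± 0.24 (SE) and EGR3 at 0.36 ± 0.21, with unadjusted P of 0.10 and 0.11. The median over the 5 members was 0.066 at 1 day and -0.021 at 1 week. Among AP-1 partners the smallest P-values at 1 day were those of ATF2, a CREB-related partner of JUN, at -0.19 ± 0.081 (unadjusted P = 0.028) and ATF3 at -0.39 ± 0.36. JUND was at -0.0094 ± 0.12 and FOSL1 at -0.0079 ± 0.12.

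In the other lists at 1 day, the upstream coactivators CRTC1 and CREBBP were at 0.24 ± 0.099 (unadjusted P = 0.026) and 0.18 ± 0.17. Among the genes limiting AP-1 signalling, MEN1 was at 0.16 ± 0.12 and DUSP8 at 0.19 ± 0.14. Of the targets, PLAU, which encodes urokinase, was at -0.46 ± 0.20 (unadjusted P = 0.032) and VIM at 0.20 ± 0.099. The edgeR adjusted P of each of these genes was 1.00.

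At 1 week the values with the smallest P in each list were as follows. BATF2 was at -0.64 ± 0.43 and FOSL1 at -0.16 ± 0.12 among AP-1 partners, and JUND was at -0.12 ± 0.12. CREBBP was at 0.24 ± 0.16 and the kinase gene RPS6KA1 at 0.19 ± 0.13. DUSP5 was at -0.61 ± 0.38 and MEN1 at -0.14 ± 0.11. The opioid precursor gene PDYN was at -0.53 ± 0.38 and the neuropeptide gene NPY at -0.23 ± 0.18. CCN2 was at 0.26 ± 0.16 and FBXO33 at 0.14 ± 0.09 among other immediate early genes, a list whose median was 0.036 against -0.0032 for all genes. Every 95% confidence interval of these 1 week values included 0.

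Between batches, listed genes moved in both directions while the 5 members did not pass. Of the 28 other immediate early genes 6 rose and 2 fell in batch 2 (edgeR adjusted P under 0.05). They included EGR3 (log2 fold change 0.74 ± 0.15), KLF6 (0.68 ± 0.14), KLF10 (0.50 ± 0.10) and NR4A3 (0.65 ± 0.16) upwards and IER3 (-0.99 ± 0.22) and GADD45G (-0.48 ± 0.12) downwards. Of the 10 AP-1 partners 4 fell, namely JDP2 (-0.37 ± 0.073), FOSL1 (-0.34 ± 0.086), BATF3 (-0.44 ± 0.13) and JUND (-0.22 ± 0.083), and 0 rose. Of 23 upstream genes 7 rose and 2 fell, with CAMK4 (0.53 ± 0.10), ELK4 (0.64 ± 0.13), CRTC1 (0.31 ± 0.069), RPS6KA3 (0.33 ± 0.074), MAPK8 (0.29 ± 0.065) and MEF2D (0.35 ± 0.081) having the smallest P. Of 13 limiting genes DUSP4 (0.55 ± 0.12) and SPRY4 (0.37 ± 0.10) rose and ZFP36 (-0.34 ± 0.11), FBXW7 (-0.22 ± 0.066) and MEN1 (-0.22 ± 0.080) fell. Of 16 targets TIMP1 (-0.40 ± 0.10), PLAU (-0.47 ± 0.14) and PENK (-0.40 ± 0.15) fell. These shares stand beside the 32.9% of all genes. In batch 2, 7 of 7 microglia and 2 of 2 blood markers fell, and 6 of 7 cortical layer and 4 of 6 astrocyte markers rose. Of 9 neuron markers 3 fell and 1 rose, and the part of the tissue's makeup in the batch values was not tested.

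Depth, mitochondrial share and cell type markers were set beside the members across animals, in 35 relations adjusted together. FOSL2 fell with the mitochondrially encoded share (r = -0.61, rho = -0.65, adjusted permutation P = 0.046 and 0.12), at -0.63 in batch 1 and -0.60 in batch 2, and at -0.58 without the 2 animals with the most extreme shares. JUN fell with the mean level of astrocyte markers (r = -0.63, rho = -0.66, adjusted permutation P = 0.046 and 0.12), at -0.79 in batch 1 and -0.51 in batch 2, and at -0.58 without the 2 most extreme animals. Without subtraction of the group and batch means it was -0.43 (adjusted permutation P = 0.23) and did not pass. The other 33 relations did not pass by Pearson's r. FOS had r = 0.59 with the assigned total (adjusted permutation P = 0.17). With neuron markers r was 0.42 for FOS, 0.46 for FOSB, 0.40 for FOSL2, 0.57 for JUN and 0.51 for JUNB, each with an adjusted permutation P of 0.17 or more. The part of these measures in the members' levels was not tested.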

How the data were processed

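Per the file headers, the authors deposited expected counts from featureCounts 1.5.1 for Ensembl genes on susScr11: primary alignments, pairs with both ends mapped, no strand, and fragments overlapping several genes divided among them in fractions. Trimming with fastp 0.20.0 and alignment with STAR 2.6c come before this, per the submitters' processing notes. Of the deposited expected counts 72.2% were whole (tolerance 0). They were rounded for the count model, which changed a library's total by at most 0.0013%. Gene symbols were found for 14857 of 25880 identifiers. JUND was matched by position on Sscrofa11.1 in the RefSeq gene table.

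Genes with enough counts (filterByExpr, minimum count 10, minimum total 15) were kept, leaving 15049. edgeR 4.0.16 (R 4.3.3) fitted quasi-likelihood models with robust dispersion, TMM scaling and terms for the 4 groups and for batch, to all 23 libraries. An adjusted P under 0.05 over all genes was a call. Standard errors and intervals come from the same fit. It was also run on simulated counts for the 1 day comparison. Those counts held no batch difference, unlike the data, and the outcome is not given here. RPKM was computed from CPM and exon length. Correlations used log2 CPM (prior count 2) with means of the 8 group and batch cells subtracted, and 100000 permutations within cells, all two-sided, while alternatives used 20000. DESeq2 1.42.0, limma-voom (limma 3.58.1), RLE scaling, no filter or a stricter one, leaving out the batch term, the robust option, animals or the groups not compared, and fitting the batches separately were alternatives.

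Members, gene lists and tests were chosen with earlier results of these data known. The 3 libraries left out as standing apart were named from that earlier work. Beside the members, JUND and FOSL1, the text names every listed gene past the threshold (at most 6 per list and comparison, by P), the 2 genes of each list with the smallest P at 1 day and at 1 week, and the 3 genes with the highest r with each member. Listed genes named for an r over 0.5 were chosen after their values were seen. Replicate numbers follow the order of deposit and only name animals. The design text gives 6 animals per group, and 1 saline animal at 1 day was not analysed here. Protein, promoter and transcript sequences were not used here.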

Additional observations from a re-analysis of the deposited data

Results flagged for a closer look

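In 20 group values of the 5 members (each member in each group), 4 held an animal far from the rest of its group, measured as its gap to the nearest animal over the range of the group. Chance alone flags about 1 in 20 such groups if values are normally distributed, and the share over all genes was not measured. All 4 are high values, and 2 of them are of the same animal. The FOSB level of psilocybin 1 day replicate 4 was 4.281 CPM, with 1.392 to 2.212 CPM in the other 5 animals. Its library had the highest assigned total of the 23 (18654626) and the lowest mitochondrially encoded share (7.08%). Across animals FOSB had r = -0.53 with that share (adjusted permutation P = 0.17, over 35 relations). The part of depth or of that share in this value was not tested. In saline 1 week replicate 5 FOSB was 7.627 CPM, with 0.7015 to 2.17 CPM in the others. JUNB in the same animal was 26.46 CPM, with 6.138 to 11.21 CPM in the others. The JUNB level of psilocybin 1 week replicate 6 was 18.61 CPM, with 9.24 to 12.34 CPM in the others.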

How the results depend on the processing

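The 5 members stayed at 0 calls in the 7 comparisons under every alternative run. Of 975 alternative values of their log2 fold changes 803 kept their sign and 172 did not, 103 of these on leaving out 1 animal. The smallest adjusted P among them was 0.082, for FOSB between batches. The cause of these changes of sign was not tested. The mean treatment effect stayed positive under every alternative for FOSL2 (0.016 to 0.098) and JUN (0.0082 to 0.071). JUN between times in saline stayed negative (-0.24 to -0.014). Between batches FOSB (0.037 to 0.71) and FOSL2 (0.028 to 0.16) stayed positive. None of these values passed the threshold. No paired analysis was possible because animal numbers are not shared between groups. FOSB counts were low, with a median of 23 per library, and the JUNB values hold shared fragments under every alternative. The batch comparison called 3850 to 5799 genes over its alternatives. DESeq2 called 1 gene (in place of 0) between times in saline and 1 between times in psilocybin, where edgeR called 0 to 1 on leaving out each animal, with the 1 appearing without psilocybin 1 week replicate 6. JUN with astrocyte markers came to r = -0.43 without centring (adjusted permutation P = 0.23).

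Values whose sign turned are log2 fold changes of psilocybin against saline, of 1 week against 1 day or of batch 2 against batch 1. With limma-voom the values became, for the treatment at 1 day JUNB -0.024, for the treatment at 1 week FOS 0.12, FOSB 0.19, JUNB 0.071, for its change between times FOS 0.095, JUNB 0.095, for its mean JUNB 0.024, for time in saline FOSB -0.014, FOSL2 -0.0034, for time in psilocybin JUNB 0.0011. With no batch term the values became, for the treatment at 1 day JUNB -0.0094, for its mean FOSB -0.037, for time in saline FOSL2 -0.0011. With the compared groups alone the values became, for the treatment at 1 day JUNB -0.012, for the treatment at 1 week FOS 0.00094, for time in saline FOSL2 -0.0015. In batch 1 alone the values became, for the treatment at 1 day FOS -0.036, FOSL2 -0.083, JUN -0.066, JUNB -0.18, for the treatment at 1 week FOS 0.17, FOSB 0.50, JUNB 0.14, for its change between times FOS 0.21, FOSB 0.45, JUN 0.25, JUNB 0.32, for time in saline FOSB -0.60, FOSL2 -0.11, for time in psilocybin JUN 0.019. Without the 3 libraries that stood apart the values became, for the treatment at 1 day FOSL2 -0.030, JUN -0.010, JUNB -0.064, for its change between times JUN 0.036, for its mean FOS -0.061, for time in saline FOSL2 -0.066, for batch JUN 0.016. Without the 2 animals with the highest FOSB (chosen after seeing the data) the values became, for the treatment at 1 day FOS -0.067, FOSB -0.12, FOSL2 -0.0058, JUNB -0.14, for the treatment at 1 week FOS 0.27, FOSB 0.55, JUNB 0.33, for its change between times FOS 0.34, FOSB 0.68, JUN 0.047, JUNB 0.48, for its mean JUNB 0.096, for time in saline FOSB -0.57, FOSL2 -0.11, for time in psilocybin FOSB 0.11, JUNB 0.093, for batch JUNB -0.036. In batch 2 alone the values became, for the treatment at 1 week FOSL2 -0.018, JUN -0.13, for its change between times FOSL2 -0.14, for its mean FOS -0.040, FOSB -0.19, for time in saline FOS 0.42, JUNB 0.44, for time in psilocybin FOS 0.15, FOSL2 -0.066, JUNB 0.17. As a difference of mean log2 CPM the values became, for the treatment at 1 day FOS -0.046, JUNB -0.099, for the treatment at 1 week FOS 0.13, FOSB 0.20, JUNB 0.083.

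On leaving out each animal in turn, the values whose sign turned at least once ranged as follows. For the treatment at 1 day the ranges were FOS -0.15 to 0.18, FOSB -0.030 to 0.54, FOSL2 -0.030 to 0.11, JUN -0.010 to 0.11, JUNB -0.22 to 0.17. For the treatment at 1 week the ranges were FOS -0.21 to 0.26, FOSB -0.36 to 0.54, FOSL2 -0.0049 to 0.17, JUN -0.018 to 0.069, JUNB -0.16 to 0.32. For its change between times the ranges were FOS -0.27 to 0.20, FOSB -0.71 to 0.33, FOSL2 -0.048 to 0.14, JUN -0.090 to 0.048, JUNB -0.19 to 0.33. For its mean the ranges were FOS -0.082 to 0.16, FOSB -0.12 to 0.37, JUNB -0.12 to 0.16. For time in saline the ranges were FOS -0.33 to 0.14, FOSB -0.53 to 0.53, FOSL2 -0.10 to 0.083, JUNB -0.37 to 0.13. For time in psilocybin the ranges were FOS -0.25 to 0.066, FOSB -0.33 to 0.055, FOSL2 -0.020 to 0.081, JUNB -0.20 to 0.16. For batch the ranges were FOS -0.19 to 0.077, JUN -0.053 to 0.022.

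Among correlations, FOSB with JUN came to -0.20 without the 2 animals with the highest FOSB, to -0.25 in batch 1 alone, and to between -0.026 and 0.23 on leaving out each animal. FOSL2 with JUN came to 0.073 without centring, to 0.27 in batch 2 alone, and to between -0.25 and 0.13 on leaving out each animal. Without centring, r with oligodendrocyte markers was 0.13 for FOS and 0.14 for JUNB, and FOSB had 0.13 with endothelial and mural markers.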
